A study of Mus musculus with 6 samples.

Results

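Casp2, Casp6, Casp8, Casp9, Apaf1, Cycs, Diablo and Xiap are 8 genes of the caspase cascade and of the apoptosome. They were taken by name from the 27998 genes counted in mouse retinal cells, and all 8 were found. Caspases are proteases that dismantle a dying cell. Initiator caspases are switched on in large complexes and then cleave executioner caspases. In the mitochondrial route, Bax opens the outer mitochondrial membrane, cytochrome c leaks out and joins Apaf1 in the apoptosome, and the apoptosome activates caspase 9. In the death receptor route, caspase 8 is activated at the cell surface. Xiap binds and inhibits caspases, and Diablo, released from mitochondria, displaces Xiap. In the developing retina this machinery removes newborn neurons, ganglion cells above all, and Bax is needed for much of that loss.

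Retinas were taken at embryonic day 14 and profiled by droplet single-cell RNA-seq of the 3′ ends of transcripts, with unique molecular identifiers (UMIs) to count molecules. The 3 genotypes had 2 libraries each: Bax het Atoh7 null, with 1 Bax allele and no Atoh7, Bax null with Atoh7 unmutated as far as the labels say, and Bax null Atoh7 null. Atoh7 encodes a transcription factor of progenitors that acts in the formation of ganglion cells. Cells that the authors labelled ganglion were still present without it. Libraries of Bax het Atoh7 null held 667 and 1056 such cells, those lacking both genes 1153 and 1138, and Bax null 1772 and 1571. No group carried both genes intact. The labels do not say which alleles were used or how many embryos went into a library. P-values between genotypes therefore measure the spread between libraries, which may be technical. Where cell types are compared within libraries, p-values measure how that difference varies from library to library.

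The 6 libraries held 67050 cells and between 22463515 and 66594431 UMIs each. Cells were grouped by the authors' labels into retinal progenitors, neurogenic cells, ganglion cells, cones and horizontal cells. Markers of progenitors (6 of 6), ganglion cells (8 of 8), cones (6 of 6) and horizontal cells (4 of 4) were highest in the type of their name, and 4 of 6 neurogenic markers were. All 4 amacrine markers were also highest under the horizontal label, so that label held amacrine RNA too. Atoh7 was at 0 UMIs in the 4 Atoh7 null libraries and at 5.96 and 6.88 CPM (counts scaled to a sum of 1e+06) in Bax null. Bax itself was at 143.5 and 107.7 CPM in the Bax het Atoh7 null libraries. It was at 17.1 and 15.0 CPM in those of Bax null, and Bax null Atoh7 null replicates 1 and 2 had 47.7 and 11 CPM.

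Some features of the libraries bear on what follows. First, the 2 Bax null Atoh7 null libraries shared 2596 cell barcodes, against 126 to 223 in each of the other 14 pairs of libraries. The shared barcodes were 17.6% of the cells of replicate 1, and 89.4% of them had the same cell type in both. In replicate 1 they held 11.2% of the UMIs and Bax at 16.9 CPM, against 51.5 CPM in its other cells, so the libraries were not fully separate. Results for this group are therefore also given without those cells or without that library where it changed a call. Second, the Bax null libraries stood apart from the other 4. Mitochondrial genes took 3.80% and 3.90% of their UMIs, against 1.06% to 1.15%, and mt-Atp6 stood at 8740 and 9020 CPM, against 3.74 to 4.55 CPM. Blood markers summed to between 824 and 1897 CPM across the cell types of Bax null, against 3.63 to 265.8 CPM elsewhere. Every contrast with Bax null is confounded with this split, so genotype and library cannot be told apart there.

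Levels below are CPM after TMM scaling (trimmed mean of M values), which centres the bulk of genes on each other. Scaled to the total alone, the median log2 fold change of all genes against Bax null in progenitors was 0.64 for Bax null Atoh7 null and 0.54 for Bax het Atoh7 null. Directions against Bax null are relative to that median. A difference is called at an adjusted p under 0.05 (edgeR quasi-likelihood test, Benjamini-Hochberg over all genes tested).

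Promoters are shown for Cycs and Casp2, whose levels differed against Bax null in every class tested with TMM and with total scaling. That of Casp8, which set progenitors apart most, is shown too. RefSeq (GRCm38.p6) had a start site for all 8 genes. Each sequence is the 250 bases before the start, and capitals mark the motifs found.
Cycs (chr6:50566570-50566819, minus strand): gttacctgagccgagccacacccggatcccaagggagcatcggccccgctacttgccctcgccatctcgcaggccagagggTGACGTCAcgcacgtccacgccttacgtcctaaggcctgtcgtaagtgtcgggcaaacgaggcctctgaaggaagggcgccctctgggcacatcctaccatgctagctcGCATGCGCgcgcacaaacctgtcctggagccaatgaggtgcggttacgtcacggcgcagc
Casp2 (chr6:42264735-42264984, plus strand): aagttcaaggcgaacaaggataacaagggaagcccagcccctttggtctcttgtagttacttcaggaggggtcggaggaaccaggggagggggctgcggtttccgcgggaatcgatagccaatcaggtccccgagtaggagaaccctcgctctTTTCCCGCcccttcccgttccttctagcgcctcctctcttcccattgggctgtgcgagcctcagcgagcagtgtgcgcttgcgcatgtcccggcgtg
Casp8 (chr1:58802252-58802501, plus strand): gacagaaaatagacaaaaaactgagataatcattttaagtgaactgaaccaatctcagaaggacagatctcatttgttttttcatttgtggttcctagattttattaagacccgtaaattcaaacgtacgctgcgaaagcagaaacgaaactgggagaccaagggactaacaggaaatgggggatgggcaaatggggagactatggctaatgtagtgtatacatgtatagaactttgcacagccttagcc
The 3 motifs below were searched on both strands from 250 bases before to 50 after each start. The cAMP response element TGACGTCA occurred in 1.79% of 32851 promoters and once in that of Cycs. The core of the NRF1 site, GCATGCGC, occurred in 2.71% of promoters and once each in those of Cycs and Apaf1. The E2F site (TTTCCCGC, TTTGGCGC, TTTGCCGC or TTTCGCGC) occurred in 2.26% of promoters and once in that of Casp2. None of the 3 was found in those of Casp6, Casp8, Casp9, Diablo and Xiap. The Casp8 promoter had 5 CpG dinucleotides and 42% G and C, against 32 CpG in Cycs and 26 in Casp2. The median of all promoters was 7 CpG, so Casp8 was near it and the other 2 were above it. The Casp8 sequence lies inside the gene as GENCODE places it (58795374 to 58847503), so it belongs to an internal start. A match is a run of letters, not a measured binding site.

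The cell types were compared first, within libraries, with retinal progenitors as the reference. Casp8, the initiator of the death receptor route (ENSMUSG00000026029, chromosome 1, 58795374 to 58847503, plus strand, GRCm38), was highest in cells labelled progenitors, then in those labelled neurogenic. In progenitors it stood at 3.99 and 4.97 TMM-scaled CPM in Bax het Atoh7 null, at 5.08 and 4.94 in Bax null, and at 4.39 and 5.17 in Bax null Atoh7 null. In neurogenic cells it ranged from 1.99 to 3.27 over the 6 libraries, and in ganglion cells from 0.24 to 1.06. Every library fell in the order progenitor, neurogenic, ganglion, with no overlap between these types. Casp8 was lower than in progenitors by a log2 fold change of -0.89 ± 0.19 (SE) in neurogenic cells, -3.08 ± 0.31 in ganglion cells, -2.62 ± 0.44 in cones and -2.74 ± 0.47 in horizontal cells, with adjusted p between 2.42e-10 and 0.000221. Only 15 Casp8 UMIs were counted in ganglion cells, 6 in cones and 5 in horizontal cells, so the last 3 types could not be ordered among themselves. The end of the Casp8 transcript shares 22.9% of its 31-base words with the pseudogene Gm20257, which was not counted in these files.

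Casp9, the initiator that the apoptosome activates (ENSMUSG00000028914, chromosome 4, 141793612 to 141815976, plus strand), ran the other way. In ganglion cells it stood at 10.2 and 12.3 TMM-scaled CPM in Bax het Atoh7 null, at 10.8 and 12.1 in Bax null, and at 13.5 and 12 in Bax null Atoh7 null. In progenitors it lay between 6.24 and 7.79, below every ganglion value. Casp9 was higher in ganglion cells than in progenitors in 6 of 6 libraries, by 0.76 ± 0.11 on the log2 scale (adjusted p = 3.77e-07), and higher in cones by 0.46 ± 0.16 (adjusted p = 0.0149). With counts thinned to the smallest total, the ganglion value was 0.45 (adjusted p = 0.226) and the cone value 0.20 (adjusted p = 0.624). Leaving out Bax het Atoh7 null replicate 1 gave 0.38 in cones (adjusted p = 0.087). In neurogenic cells Casp9 was at 4.10 to 6.88 and in horizontal cells at 5.59 to 11, and neither difference from progenitors was called. Exons of Casp9 overlap those of Cela2a and Ctrc on the other strand, and both of those genes had 0 UMIs in all 6 libraries.

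Casp2, a caspase that is activated in its own complex (ENSMUSG00000029863, chromosome 6, 42264985 to 42282508, plus strand), was highest in progenitors and neurogenic cells, and these neighbours in the order did not differ beyond their spread. In progenitors it stood at 55.8 and 56.3 TMM-scaled CPM in Bax het Atoh7 null, at 23.4 and 21.7 in Bax null, and at 44.2 and 51.2 in Bax null Atoh7 null. In cones the same 3 groups stood at 35.0 and 34.8, at 10.5 and 12, and at 30.8 and 23.8. Casp2 was lower in cones and in ganglion cells than in progenitors in 6 of 6 libraries, by -0.79 ± 0.11 (adjusted p = 1.83e-07) and -0.47 ± 0.08 (adjusted p = 5.79e-06) on the log2 scale. The horizontal value of -0.23 ± 0.10 (adjusted p = 0.0465) was lost under 9 of 17 alternatives, whose adjusted p ran from 0.00828 to 0.578. It was -0.14 without Bax het Atoh7 null replicate 1, -0.25 without Bax null Atoh7 null replicate 2 and -0.23 without Bax null replicate 1. Casp2 was the only one of the 8 genes that the authors' gene table marks for ordering cells (2632 genes are marked), so its differences between types are not independent of that choice.

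Casp6, an executioner caspase (ENSMUSG00000027997, chromosome 3, 129901425 to 129914103, plus strand), varied little between types. Its ganglion level was 28.6 and 32.5 TMM-scaled CPM in Bax het Atoh7 null, against 44.2 and 45.1 in Bax null, with 30.1 and 33.0 in Bax null Atoh7 null. Its progenitor level was 37.2 and 39.9, 56.7 and 57.1, and 34.2 and 43.2 in the same groups. Casp6 was lower in ganglion cells in 6 of 6 libraries, by -0.35 ± 0.08 on the log2 scale (adjusted p = 0.000235), and with thinned counts the value was -0.29 (adjusted p = 0.0983). The neurogenic value was -0.21 ± 0.07 (adjusted p = 0.0154) and the horizontal value -0.25 ± 0.10 (adjusted p = 0.0321). Both were lost under several alternatives. In Bax null alone they were -0.04 (adjusted p = 0.633) and 0.09 (adjusted p = 0.588). Leaving out Bax het Atoh7 null replicate 1 or either Bax null Atoh7 null library also ended both calls, and leaving out Bax het Atoh7 null replicate 2 ended the horizontal one, with values from -0.26 to -0.17.

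Apaf1, the scaffold of the apoptosome (ENSMUSG00000019979, chromosome 10, 90989311 to 91082770, minus strand), was not called in any type. Its level over the 6 libraries was 6.63 to 9.56 TMM-scaled CPM in progenitors, 7.64 to 10.2 in neurogenic cells, 5.67 to 10.6 in ganglion cells, 3.52 to 14.6 in cones and 3.99 to 10.7 in horizontal cells. These ranges overlapped for every pair of types, and only 65 UMIs in cones and 45 in horizontal cells stood behind the last ranges.

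Cycs, which encodes cytochrome c (ENSMUSG00000063694, chromosome 6, 50562563 to 50566538, minus strand), was highest in neurogenic and ganglion cells. In neurogenic cells it stood at 130.4 and 162.7 TMM-scaled CPM in Bax het Atoh7 null, at 551 and 498 in Bax null, and at 122.7 and 87.5 in Bax null Atoh7 null. In progenitors the same groups stood at 70.2 and 78.1, at 359.1 and 356.1, and at 62.0 and 56.2. Cycs was higher than in progenitors in 6 of 6 libraries in each of 3 types. The log2 fold change was 0.77 ± 0.06 in neurogenic cells, 0.66 ± 0.06 in ganglion cells and 0.33 ± 0.07 in horizontal cells, with adjusted p between 5.92e-12 and 0.000131. Cones and progenitors, neighbours at the bottom of the order, differed by -0.08 with TMM (adjusted p = 0.303) and 0.13 with total scaling (adjusted p = 0.114). Neurogenic cells lay above ganglion cells in 4 of 6 libraries.

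Diablo, the antagonist of Xiap (ENSMUSG00000029433, chromosome 5, 123509765 to 123524176, minus strand), was highest in neurogenic cells. There it stood at 206.6 and 201.7 TMM-scaled CPM in Bax het Atoh7 null, at 199.6 and 176.7 in Bax null, and at 217.9 and 236.4 in Bax null Atoh7 null. Progenitors lay between 153.5 and 172.4, below the neurogenic value of their own library in 6 of 6. The difference was 0.37 ± 0.05 on the log2 scale (adjusted p = 6.23e-07). Small decreases in cones (-0.19 ± 0.06, adjusted p = 0.00563) and ganglion cells (-0.15 ± 0.05, adjusted p = 0.0124) depended on scaling: scaled to the total, they were 0.0015 (adjusted p = 0.987) and -0.09 (adjusted p = 0.142). The ganglion value was 0.03 in Bax null alone (adjusted p = 0.502), -0.13 without Bax null Atoh7 null replicate 1 (adjusted p = 0.0502), and -0.14 when Bax het Atoh7 null replicate 1 was left out (adjusted p = 0.0545). Diablo overlaps B3gnt4 on the other strand, which had 30 to 90 UMIs per library, and the overlapping gene Gm49027 on its own strand was not counted in these files.

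Xiap, the inhibitor (ENSMUSG00000025860, chromosome X, 42059679 to 42109656, plus strand), was lower in ganglion cells than in progenitors. Ganglion cells stood at 21.3 and 20.2 TMM-scaled CPM in Bax het Atoh7 null, at 19.3 and 19.4 in Bax null, and at 14.9 and 17.2 in Bax null Atoh7 null. Progenitors stood at 32.1 and 35.1, at 35.4 and 34.5, and at 27.3 and 30.9, above every ganglion value. The log2 fold change was -0.80 ± 0.08 in ganglion cells (adjusted p = 8.13e-11) and -0.63 ± 0.10 in horizontal cells (adjusted p = 3.17e-06), in 6 of 6 libraries each. In cones it was -0.26 ± 0.09 (adjusted p = 0.0147), and scaled to the total it was -0.07 (adjusted p = 0.546). Without Bax het Atoh7 null replicate 2 the cone value was -0.21 (adjusted p = 0.0844).

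**Figure D1:**
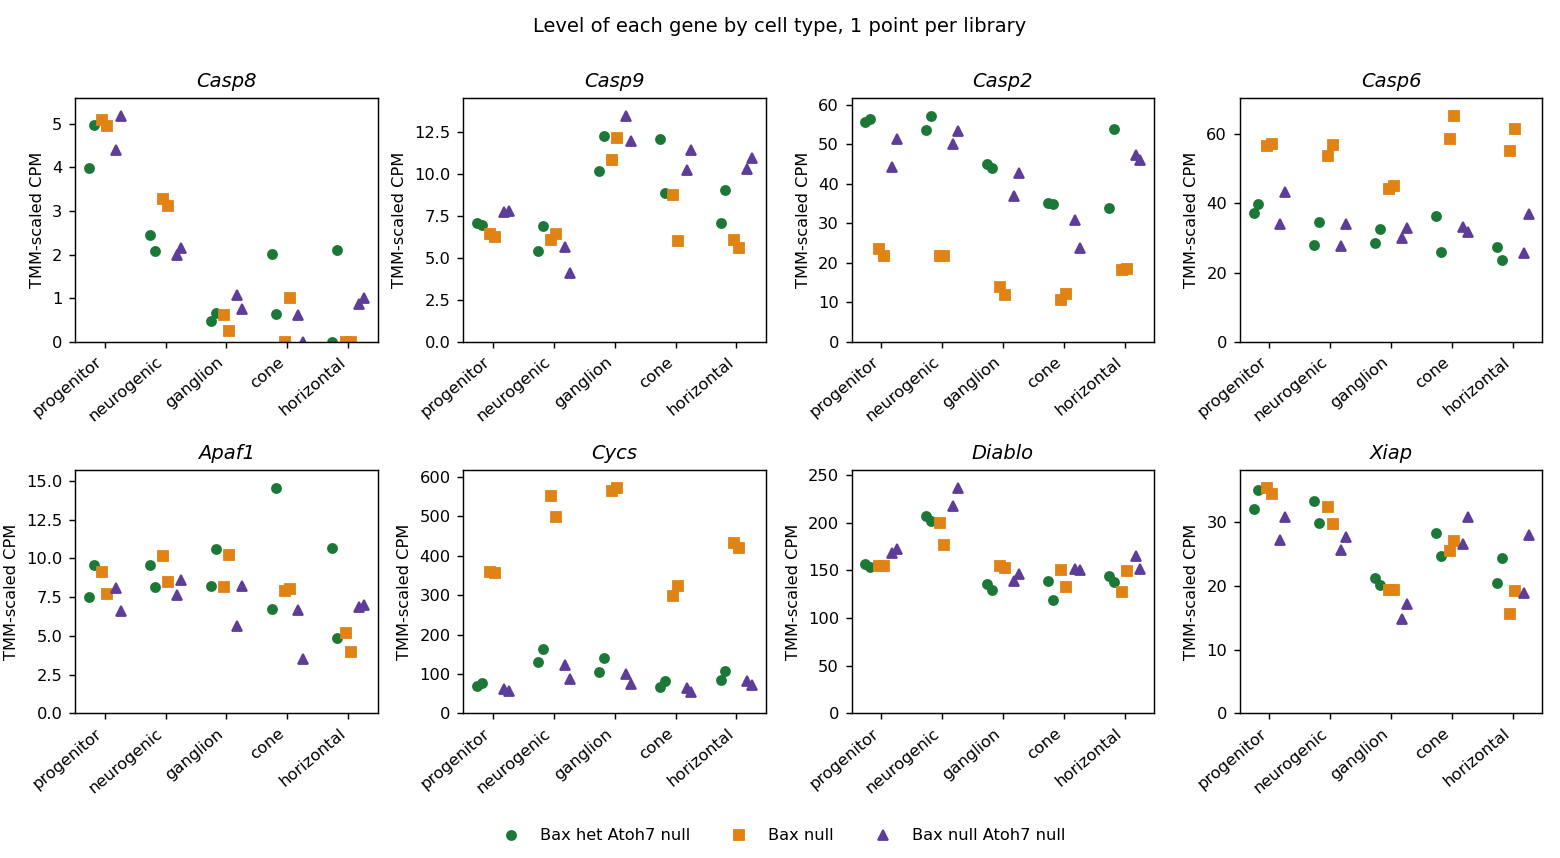
TMM-scaled CPM (vertical axes, from 0) of the 8 genes in 5 cell types, with 1 point per library and colour and shape for the genotype. Casp8 falls from progenitors to ganglion cells in all 6 libraries, Casp9 is higher in ganglion cells than in progenitors in all 6 and than in cones in 5 of 6, a step that was not tested, and the Bax null libraries lie apart for Casp2, Casp6 and Cycs.

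Counted over the 8 genes, 7 were called in ganglion cells (2 higher and 5 lower), where 37.5% of all genes tested were called higher and 39.7% lower. In cones 5 were called (1 higher and 4 lower), against a background of 32.1% and 34.8%. In horizontal cells 5 were called (1 higher and 4 lower), against 31.1% and 33.8%. In neurogenic cells 4 were called (2 higher and 2 lower), against 26% and 27.8%. The median log2 fold change of the 8 genes was -0.25 in ganglion cells, against -0.02 for all genes tested. Most genes differed between types, so these counts show nothing particular to the 8. With counts thinned to the smallest total, 12 of 28 tested pairs of gene and type were called, against 21 of 32 with all counts. With total scaling the share of called genes that were higher went from 48.0% to 61.9% in cones and from 47.9% to 58.2% in horizontal cells, and the 8 genes had 1 higher and 2 lower in each.

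**Figure D2:**
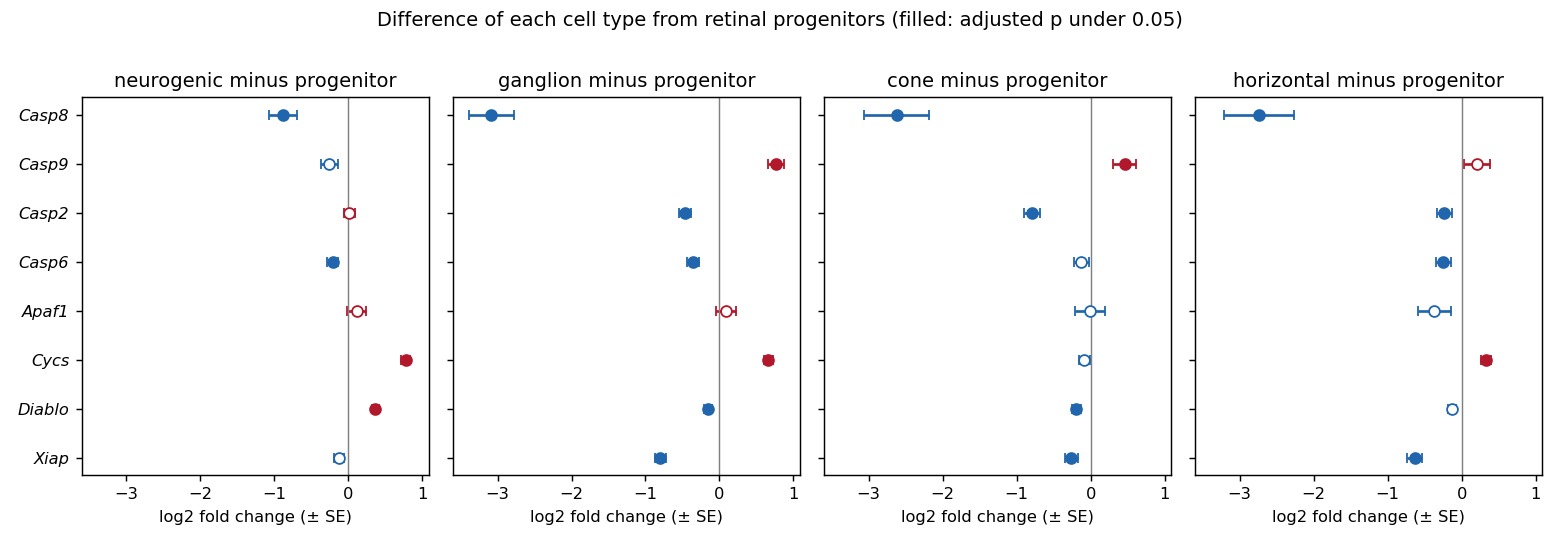
Log2 fold change (horizontal axes, with its SE) of each gene in 4 cell types against retinal progenitors, all 6 libraries in 1 fit. Filled points had an adjusted p under 0.05, red points are higher and blue points lower. Casp8 is lower in all 4 types, and Casp9 and Cycs are higher in ganglion cells.

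The wider pathway was read from 48 further genes in 6 lists, of which 47 were found and 38 were tested between types. In ganglion cells 10 were higher and 19 lower, in cones 8 and 19, in horizontal cells 9 and 20, and in neurogenic cells 7 and 14. Over all genes the shares lower were 39.7%, 34.8%, 33.8% and 27.8% in the same order, and those higher 37.5%, 32.1%, 31.1% and 26%. Birc5, an inhibitor of apoptosis family member that also works in cell division, had the largest decrease among them in ganglion cells (-3.33 ± 0.19), cones (-3.21 ± 0.21) and horizontal cells (-2.91 ± 0.21), with adjusted p of 4.89e-16, 3.91e-14 and 3.21e-13. Gsn, the actin-severing gelsolin that caspases cleave, and Ngfr, a receptor of the tumour necrosis factor family, were higher in ganglion cells by 2.64 ± 0.17 (adjusted p = 2.20e-14) and 2.63 ± 0.27 (adjusted p = 4.54e-10). Sept4 was higher in cones by 1.62 ± 0.08 (adjusted p = 9.21e-17) and lower in neurogenic cells by -1.68 ± 0.09 (adjusted p = 7.60e-16). Of the 8 apoptosome modulators, a list of chaperones and Apaf1 regulators, 6 were lower in ganglion cells and 7 in cones, where 39.7% and 34.8% of all genes were. Of the 9 death receptors and adaptors tested, 5 were lower in neurogenic cells, among them Tnfrsf1a (-0.75 ± 0.13, adjusted p = 1.52e-05) and Tradd (-0.71 ± 0.12, adjusted p = 1.77e-05), which carry the signal of tumour necrosis factor. Of all genes, 27.8% were lower there.

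Patterns across the 30 sums of 6 libraries and 5 types, with each library's mean subtracted, were compared among 8093 genes by Pearson's r of log2(CPM + 1). Sums of 1 library share its depth, so r is a description. Casp8 lay nearest to Gm8730, Pkp4 and Arhgap5 (r = 0.94, 0.94 and 0.93). Casp9 lay nearest to Vasp (0.91), R3hdm4 (0.89) and Bid (0.88), Bid being the Bcl-2 family protein that caspase 8 cleaves. Cycs lay nearest to Cox7a2 (0.96), a subunit of cytochrome c oxidase, then Calm2 and Myef2 (0.92 each). Casp2 lay nearest to Dnajc24 (0.94), Rbm17 and Arf6 (0.92 each), Diablo to Cwc15, Ptgr1 (0.91 each) and Rrs1 (0.89), and Xiap to Cops7a (0.94), Fam19a5 (0.93) and Lpin2 (0.91). The nearest genes were less close for Casp6, with Mgat1 (0.76), Efemp1 (0.74) and Hacd2 (0.73), and for Apaf1, with Akt2 (0.69), Fntb (0.68) and Elp6 (0.66). Among the 8 themselves, Casp8 was closest to Xiap (r = 0.73) and to Casp2 (0.72), and Casp9 was opposite to Diablo (-0.66).

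The genotypes were compared next, within progenitors, neurogenic cells, ganglion cells and cones. Casp8 had too few UMIs to be tested in ganglion cells and cones, which left 30 pairs of gene and class. Both contrasts with Bax null share the Bax null libraries, so their values are given side by side and are not independent of each other.

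Cycs was far lower in both Atoh7 null groups than in Bax null in every class. In ganglion cells it stood at 104.6 and 141.5 TMM-scaled CPM in Bax het Atoh7 null, at 564.2 and 572.2 in Bax null, and at 100.9 and 73.4 in Bax null Atoh7 null. The groups with and without Atoh7 did not overlap in this or any other class. Against Bax null, the log2 fold change in Bax null Atoh7 null was -2.58 ± 0.09 in progenitors, -2.33 ± 0.15 in neurogenic cells, -2.73 ± 0.15 in ganglion cells and -2.42 ± 0.14 in cones (adjusted p at most 4.16e-07). In Bax het Atoh7 null it was -2.26 ± 0.09, -1.85 ± 0.15, -2.20 ± 0.15 and -2.10 ± 0.14 in the same order (adjusted p at most 2.59e-06). Scaled to the total, the progenitor values were -1.95 and -1.72, still called. Gm10053, a gene that shares 28.6% of the 31-base words of Cycs transcripts, moved with it: it stood at 6.31 and 9.05 CPM in the Bax null libraries and at 0.343 to 0.569 CPM in the other 4. That share is over whole transcripts. Over the last 400 bases of Cycs transcripts, nearer to the 3′ ends that were read, 0 genes shared at least 20% of these words. Reads that could belong to either gene are uncertain, and their part in the result was not tested.

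Casp2 was higher in both Atoh7 null groups than in Bax null in every class. In ganglion cells it stood at 45.0 and 44.1 TMM-scaled CPM in Bax het Atoh7 null, at 13.9 and 11.9 in Bax null, and at 36.8 and 42.7 in Bax null Atoh7 null. Again no Bax null library overlapped either group in any class. In Bax null Atoh7 null the log2 fold change was 1.09 ± 0.09 in progenitors, 1.24 ± 0.11 in neurogenic cells, 1.59 ± 0.15 in ganglion cells and 1.24 ± 0.31 in cones (adjusted p at most 0.00474). In Bax het Atoh7 null it was 1.32 ± 0.09, 1.35 ± 0.11, 1.78 ± 0.15 and 1.58 ± 0.29 (adjusted p at most 0.000419). The first cone value rested on 12 UMIs in each Bax null library: it was 1.02 without Bax null Atoh7 null replicate 1 (adjusted p = 0.0587), 1.14 without Bax null replicate 1 (adjusted p = 0.055), 1.21 by DESeq2 (adjusted p = 0.0625) and 0.92 with thinned counts (adjusted p = 0.0707).

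Casp6 was lower than in Bax null in every class on the TMM scale, and most of these calls were lost with the other scaling. In progenitors it stood at 37.2 and 39.9 TMM-scaled CPM in Bax het Atoh7 null, at 56.7 and 57.1 in Bax null, and at 34.2 and 43.2 in Bax null Atoh7 null. The log2 fold changes in Bax null Atoh7 null were -0.55 ± 0.11 in progenitors, -0.87 ± 0.13 in neurogenic cells, -0.53 ± 0.12 in ganglion cells and -0.98 ± 0.21 in cones (adjusted p at most 0.0028). In Bax het Atoh7 null they were -0.55 ± 0.11, -0.83 ± 0.13, -0.54 ± 0.13 and -1.04 ± 0.20 (adjusted p at most 0.00329). Scaled to the total, the progenitor values were 0.09 (adjusted p = 0.559) and -0.02 (adjusted p = 0.925), the ganglion values 0.08 (adjusted p = 0.610) and -0.05 (adjusted p = 0.753), and only the cone value in Bax het Atoh7 null, -0.58, was still called (adjusted p = 0.0317).

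Xiap was called once, in progenitors of Bax null Atoh7 null against Bax null, at -0.26 on the TMM scale (adjusted p = 0.037). It was 0.38 with total scaling (adjusted p = 0.0117), so its direction was set by the scaling, and -0.24 with the shared cells left out (adjusted p = 0.0614). Without Bax null Atoh7 null replicate 1 it was -0.16, without Bax het Atoh7 null replicate 1 it was -0.25, and without Bax null replicate 1 or 2 it was -0.23 or -0.28, none of them called. Casp9, Apaf1, Diablo and Casp8 were not called between genotypes in any class on the TMM scale. In progenitors Diablo, for example, stood at 156.9 and 153.5 TMM-scaled CPM in Bax het Atoh7 null, at 154.1 and 154 in Bax null and at 168.2 and 172.4 in Bax null Atoh7 null. With total scaling Diablo, Casp9, Apaf1 and Casp8 were higher in progenitors of Bax null Atoh7 null than of Bax null, by 0.79, 0.93, 0.45 and 0.56 on the log2 scale, all called, where the median of all genes was higher by 0.64.

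**Figure D3:**
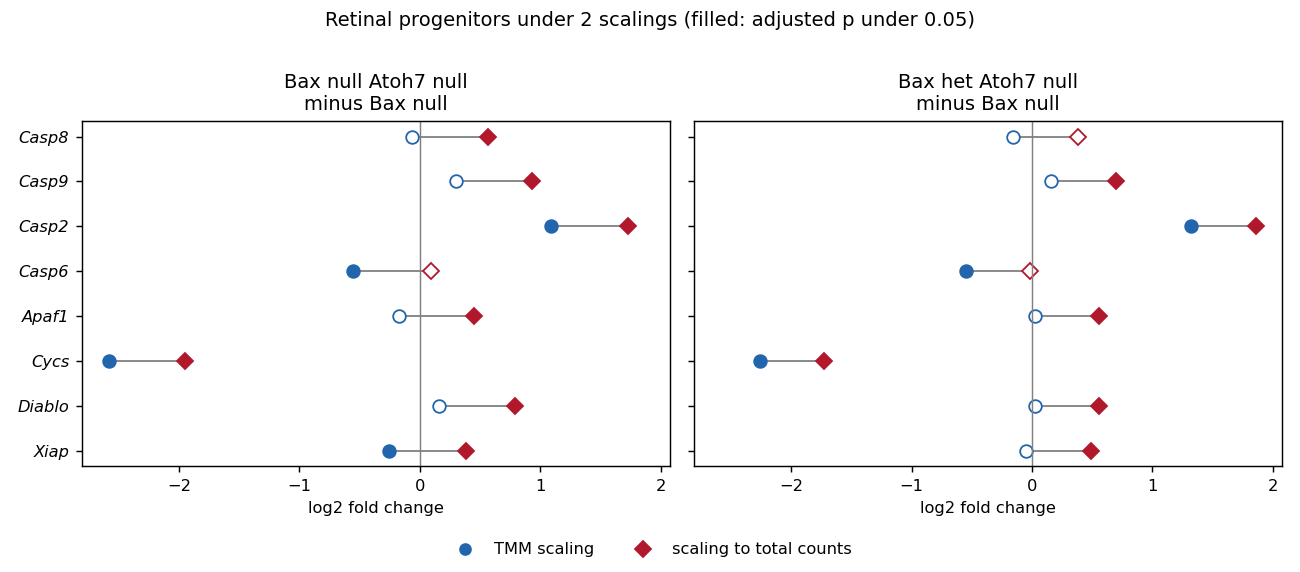
Log2 fold change in retinal progenitors against Bax null (horizontal axes) under TMM scaling (blue circles) and scaling to total counts (red diamonds), with filled points at an adjusted p under 0.05. All 8 genes move to the right with total scaling. Casp2 stays above 0 and Cycs below 0 under both, and Casp6 and Xiap do not keep a call of 1 direction.

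In all, 13 of 30 pairs were called in Bax null Atoh7 null minus Bax null (4 higher and 9 lower). Among all genes, 26.8% were called higher and 27.1% lower in progenitors, 23.5% and 23.8% in neurogenic cells, 26.2% and 26.5% in ganglion cells, and 12.5% and 15.6% in cones. In Bax het Atoh7 null minus Bax null, 12 of 30 pairs were called (4 higher and 8 lower), against 26.6% and 26.5% of genes in progenitors, 23.4% and 23.8% in neurogenic cells, 25% and 25% in ganglion cells, and 12.7% and 14.8% in cones. With total scaling the split became 14 higher and 4 lower in the first contrast and 12 higher and 5 lower in the second. Over all genes and classes it went from 10294 higher and 10675 lower to 26560 and 3213 in the first, and from 10137 and 10369 to 23480 and 3080 in the second.

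**Figure D4:**
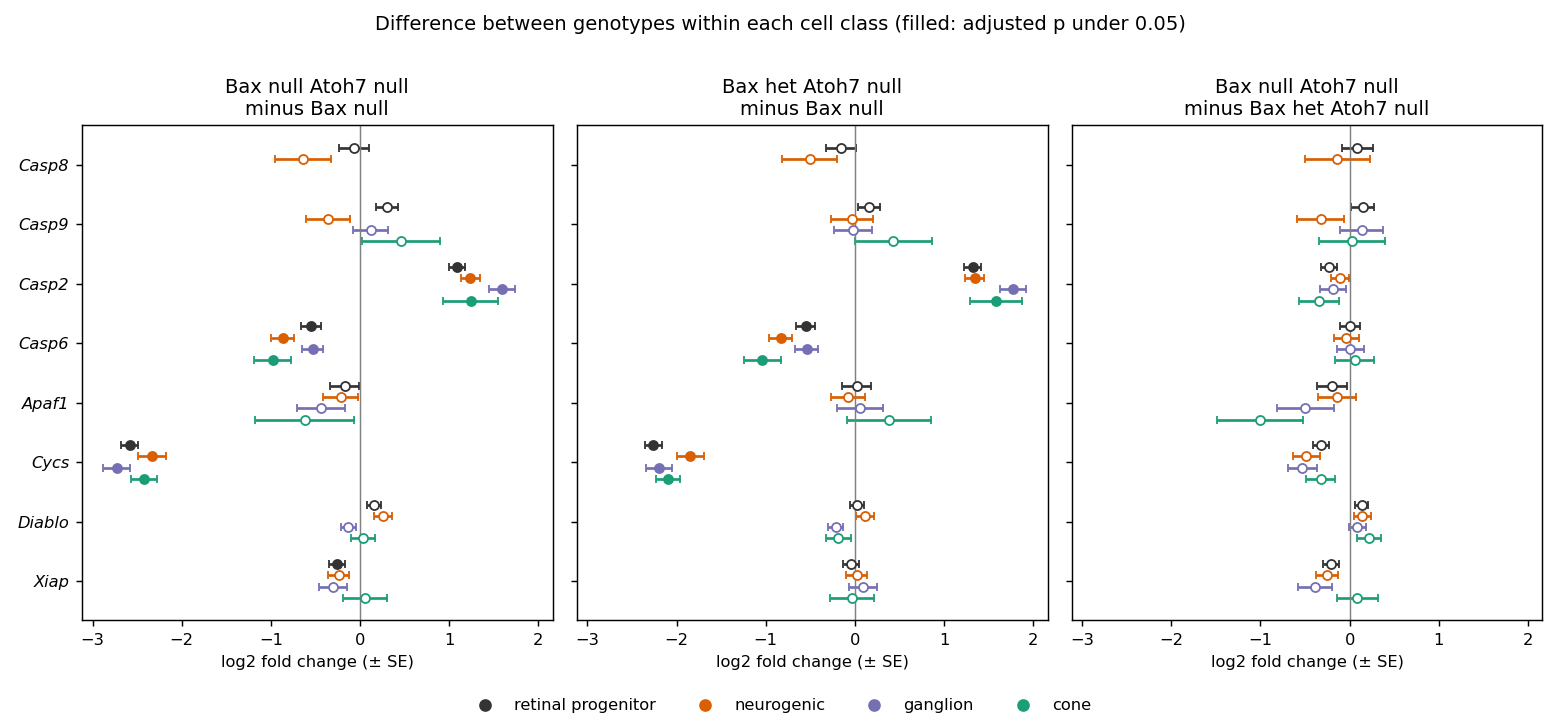
Log2 fold change (horizontal axes, with its SE) of each gene in the 3 genotype contrasts, with colour for the cell class and filled points at an adjusted p under 0.05. Casp2 is higher and Casp6 and Cycs are lower in all 4 classes against Bax null, and no point is filled in the contrast between both Atoh7 null groups.

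Among the wider pathway lists, Bax null Atoh7 null minus Bax null had 10 genes higher and 14 lower of 40 tested in progenitors, 4 and 13 of 37 in neurogenic cells, 4 and 12 of 35 in ganglion cells, and 1 and 7 of 31 in cones. Bax het Atoh7 null minus Bax null had 9 and 14, 5 and 12, 5 and 10, and 1 and 7. Over all genes, 26.8% were higher and 27.1% lower in progenitors in the first contrast. The shares were 23.5% and 23.8% in neurogenic cells, 26.2% and 26.5% in ganglion cells, and 12.5% and 15.6% in cones. In the second contrast they were 26.6% and 26.5%, 23.4% and 23.8%, 25% and 25%, and 12.7% and 14.8% in the same order. In every class the lists together had a smaller share higher and a larger share lower than all genes, which was not tested. The 6 lists were not alike. Of the apoptosome modulators, 5, 5, 6 and 4 were lower in the first contrast, in the same order of classes, and 0 were higher. In progenitors the mitochondrial death factors had 1 higher and 3 lower of 6. The death receptors and adaptors had 2 and 2 of 10 there, and the other inhibitors of apoptosis 3 and 2 of 6. Caspase substrates and nucleases had 3 and 2 of 8, and the other caspases 1 and 0 of 2. The counts were made with TMM scaling only, and the split of higher and lower depends on the scaling, as it does for all genes. Hspe1, a mitochondrial co-chaperonin, was lower in all 4 classes in the first contrast, from -1.32 ± 0.13 in progenitors (adjusted p = 4.21e-05) to -0.95 ± 0.14 in cones (adjusted p = 2.79e-05). Lmnb1, a nuclear lamin that caspases cleave, was higher by 0.95 ± 0.11 in progenitors (adjusted p = 0.000121) and by 1.30 ± 0.18 in cones (adjusted p = 1.20e-05). Ngfr was lower in ganglion cells by -1.65 ± 0.15 (adjusted p = 2.13e-06).

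Loss of the remaining Bax allele on the Atoh7 null background was read from Bax null Atoh7 null against Bax het Atoh7 null, libraries with like mitochondrial shares (1.06% to 1.15%). Other features were less alike. Ribosomal protein genes took 17.4% of UMIs in Bax null Atoh7 null replicate 2, against 21.4% to 22.6% in the rest of these libraries. That library also had the fewest UMIs (22463515). Replicate 1, as labelled, of Bax null Atoh7 null had more Bax than both Bax null libraries, so it may hold cells or RNA that are not Bax null, which was not tested and would change what the contrast measures. None of the 30 pairs was called by edgeR or DESeq2, and 6 had an unadjusted p under 0.05 in edgeR. The background was low as well: in progenitors 0.0597% of genes passed as higher and 1.95% as lower, with 0.00857% and 1.76% in neurogenic cells, 0.246% and 2.1% in ganglion cells, and 0.0318% and 1.43% in cones. Casp9 in progenitors stood at 7.75 and 7.79 TMM-scaled CPM in Bax null Atoh7 null and at 7.11 and 6.94 in Bax het Atoh7 null. Apaf1 stood at 8.08 and 6.63 against 7.50 and 9.56, which overlapped. A missed threshold with 2 libraries a group does not show that the levels were alike.

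Cycs came nearest to a call in this contrast. In neurogenic cells it stood at 122.7 and 87.5 TMM-scaled CPM in Bax null Atoh7 null and at 130.4 and 162.7 in Bax het Atoh7 null, without overlap. The log2 fold change there was -0.49 ± 0.15 (adjusted p = 0.204). It was -0.53 ± 0.16 in ganglion cells (adjusted p = 0.14) and -0.32 ± 0.09 in progenitors (adjusted p = 0.128), both nearer to a call. With the shared cells left out the neurogenic value was -0.45 (adjusted p = 0.337). Without Bax null Atoh7 null replicate 1, the library in which Bax stood at 47.7 CPM, it was -0.77 ± 0.13 (adjusted p = 0.00257), with -0.79 ± 0.15 in ganglion cells (adjusted p = 0.0027) and -0.40 ± 0.09 in progenitors (adjusted p = 0.0328). Without replicate 2 the values were -0.28 ± 0.12 in neurogenic cells (adjusted p = 0.335), -0.33 ± 0.14 in ganglion cells (adjusted p = 0.302) and -0.26 ± 0.08 in progenitors (adjusted p = 0.126). In each of these fits a single library stands for the group and is assumed to vary like the others. With both libraries and no filter on low counts the neurogenic value was -0.51 ± 0.12 (adjusted p = 0.00153). Of the pathway genes tested (40 in progenitors, 37 in neurogenic cells, 35 in ganglion cells and 31 in cones), Cse1l was the only one called, against 1.95%, 1.76%, 2.1% and 1.43% of all genes lower. Cse1l is a nuclear transport factor that promotes apoptosome assembly. It was lower by -0.65 ± 0.08 in progenitors (adjusted p = 0.00922), -0.61 ± 0.11 in neurogenic cells (adjusted p = 0.017) and -0.69 ± 0.15 in ganglion cells (adjusted p = 0.0354). These Cse1l values are from the fit with all cells and libraries, and their dependence on the shared cells or on a single library is not given here.

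The last comparison asked whether the step from progenitor to ganglion cell differed between genotypes. A shift common to both types of a library drops out of it. A difference between groups in the cells under the ganglion label does not, and its part was not tested. Markers of progenitors summed to between 300 and 1216 CPM in ganglion cells. The pathway gene Birc5 had a step above that of Bax null by 1.34 in both Atoh7 null groups (adjusted p = 9.59e-08 and 2.40e-08). Of the 40 pathway genes tested, 4 were called higher and 6 lower in Bax het Atoh7 null, with 4 and 4 in Bax null Atoh7 null. Over all genes, 7.4% were called higher and 7.81% lower in the first, and 8.15% and 7.53% in the second. Casp2 in ganglion cells was 0.808 and 0.783 of its progenitor level in Bax het Atoh7 null, against 0.594 and 0.548 in Bax null, with 0.833 and 0.834 in Bax null Atoh7 null. Both Bax null libraries were below all 4 others. The step differed from that of Bax null by 0.46 ± 0.15 on the log2 scale in Bax het Atoh7 null (adjusted p = 0.0319) and by 0.52 ± 0.15 in Bax null Atoh7 null (adjusted p = 0.0132). Diablo in ganglion cells was 0.864 and 0.844 of its progenitor level in Bax het Atoh7 null, against 1.003 and 0.986 in Bax null, with 0.827 and 0.850 in Bax null Atoh7 null. Its step differed from that of Bax null by -0.26 ± 0.08 in Bax null Atoh7 null (adjusted p = 0.0232).

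The 3 calls of Casp2 and Diablo were the only ones among the 24 tests of the 8 genes. The count was 1 of 8 genes higher and 0 lower for Bax het Atoh7 null minus Bax null, where 7.4% of all genes were called higher and 7.81% lower. It was 1 higher and 1 lower for Bax null Atoh7 null minus Bax null, against 8.15% and 7.53%. Between both Atoh7 null groups it was 0, against 0.102% and 0%, and no gene of the 8 had an unadjusted p under 0.05. All 3 calls were lost by DESeq2, with thinned counts and without Bax null replicate 2, when the Casp2 values were 0.40 (adjusted p = 0.244) and 0.46 (adjusted p = 0.15) and the Diablo value -0.28 (adjusted p = 0.069). Without Bax null replicate 1 the Casp2 value in Bax het Atoh7 null was 0.52 (adjusted p = 0.0841) and the Diablo value -0.25 (adjusted p = 0.112). The Casp2 value in Bax het Atoh7 null was 0.43 and 0.48 without either library of its own group (adjusted p = 0.166 and 0.165), and 0.41 with total scaling (adjusted p = 0.0633). It was 0.47 with doublets left out (adjusted p = 0.0553) and 0.44 with no filter on low counts (adjusted p = 0.0533). With thinned counts the values were larger but not called, at 0.64 and 0.72 for Casp2 (adjusted p = 0.339 and 0.259) and -0.42 for Diablo (adjusted p = 0.0624). The Casp2 value in Bax null Atoh7 null was 0.52 and 0.51 without replicate 1 and replicate 2 of that group (adjusted p = 0.0664 and 0.0675), and the Diablo value was -0.25 without its replicate 1 (adjusted p = 0.072). Ganglion cells of Bax null held 113 and 99 Casp2 UMIs, which limits the precision. Casp9 was 1.43 and 1.77 times its progenitor level in Bax het Atoh7 null, against 1.68 and 1.95 in Bax null, with 1.74 and 1.54 in Bax null Atoh7 null. These ranges overlapped. Xiap was 0.664 and 0.576 times its progenitor level in Bax het Atoh7 null, above the 0.545 to 0.562 of the other 4 libraries, and no difference in its step was called.

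**Figure D5:**
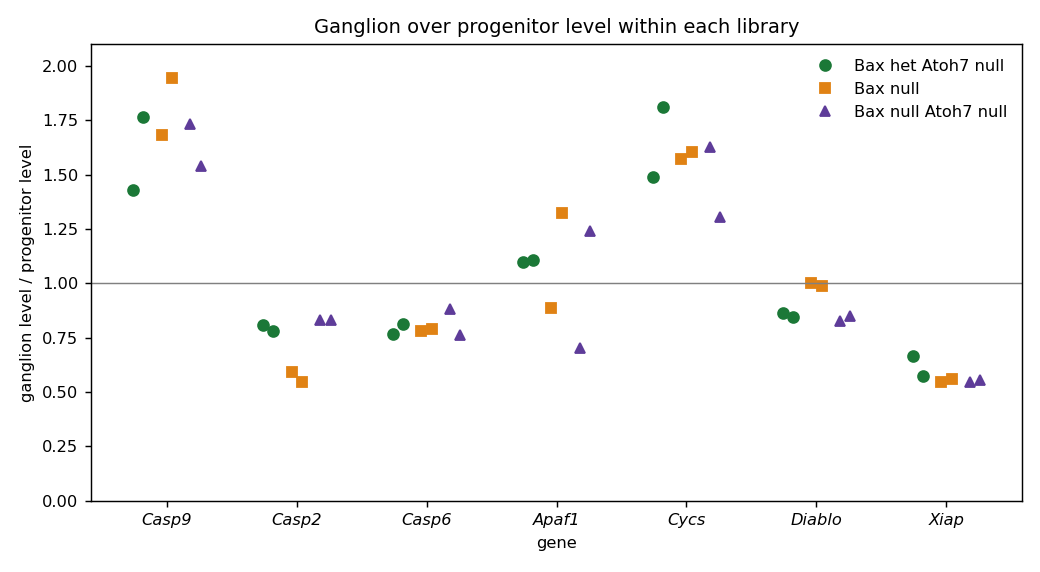
Level in ganglion cells divided by that in retinal progenitors of the same library (vertical axis, from 0, grey line at 1), with 1 point per library. Casp8 is left out for its low counts. The Bax null libraries lie below the others for Casp2 and above them for Diablo, and the genotypes overlap for Casp9, Casp6, Apaf1 and Cycs.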

How the data were processed

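The deposited matrix holds raw UMI counts, per the file headers and values. The submitters' processing notes name Cell Ranger 1.2.1 and mm10. The authors' cell table gave library and cell type, and its totals matched the matrix in all 67050 cells. Another 26078 cells of 2 other libraries were not used here. No doublets were removed, and an alternative dropped the top 8% of each library by Scrublet doublet score (5364 cells). Counts were summed per library and type (30 sums). Genes passed filterByExpr, had TMM factors applied, and went into two-sided quasi-likelihood tests (edgeR 4.0.16, R 4.3.3). Cell types were compared with library as a block, genotypes by group within a class with all 6 libraries in 1 fit, and the ganglion minus progenitor step by an interaction term. SE is the log2 fold change over the square root of F. Scripts were tested on simulated data. The members, lists and tests were chosen with earlier results of these data known. Members were named in full and given fold changes where called, and list genes up to 3 per comparison (called, at least 5 CPM), some of which are not reported here. Gene positions are from GENCODE M21 (GRCm38).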

Additional observations from a re-analysis of the deposited data

Results flagged for a closer look

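The 3 results here differed between groups by a test of the difference itself, the interaction of cell type and genotype. All 3 lost their call by DESeq2 and with thinned counts. The ganglion minus progenitor difference of Casp2 exceeded that of Bax null by 0.46 on the log2 scale in Bax het Atoh7 null and by 0.52 in Bax null Atoh7 null. That of Diablo in Bax null Atoh7 null differed from that of Bax null by -0.26. All 3 compare with the same Bax null libraries, in which mitochondrial genes took 3.80% and 3.90% of UMIs, and the part of that in the results was not tested. With 2 libraries a group no library could be tested for standing apart.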

How the results depend on the processing

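Of 49 called values of the 8 genes, 28 kept their direction and call under every alternative that gave a value. They include all 8 values of Cycs and 7 of 8 of Casp2 against Bax null, and Casp8 in every type. The 2 alternatives below were chosen after seeing the data: scaling to total counts, and leaving the shared cells out of Bax null Atoh7 null replicate 1. Reversed with total scaling were Casp6 against Bax null in ganglion cells (0.077) and progenitors (0.090) of Bax null Atoh7 null, Xiap there (0.38) and Diablo in cones (0.0015). Reversed in Bax null alone were Casp6 in horizontal cells (0.090) and Diablo in ganglion cells (0.031).

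Thinned counts called 12 pairs between types, against 21, and 19396 over all genes, against 31991. For the difference in the ganglion step, the 8 genes had 0 calls by DESeq2 and with thinned counts and 0 to 3 with 1 library left out, against 3, and all genes had 1785 (DESeq2) and 1196 (thinned), against 4238. Between both Atoh7 null groups, the 8 genes had 1 call with no filter and 0 to 3 with 1 library left out, against 0. Over all genes that contrast gave 861 calls, 503 with only the 4 libraries compared, 540 without the shared cells and 144 to 1848 with 1 library left out. The cause of these changes was not tested, except that thinning leaves fewer counts. The replicate number as a block (replicate block) gave 13, 12 and 0 calls of the 8 genes in the 3 genotype contrasts, as without it. The deviations of same-numbered libraries correlated at 0.287, 0.225, 0.153 and 0.0934 between both Atoh7 null groups (progenitors, neurogenic cells, ganglion cells, cones), and between -0.0972 and 0.0517 in the pairs with Bax null. The labels give the numbers no shared origin, and with 2 libraries a group a pairing could not be settled.

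Depth limits Casp8 outside progenitors and neurogenic cells, and Casp9 and Apaf1 in cones and horizontal cells, which had 45 to 78 UMIs there.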
